A study of Mus musculus with 9 samples.

Results

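Mitochondrial ribosomal protein genes were examined in RNA-seq of mouse lung cells from young mice, aged mice given vehicle and aged mice given PDK4-IN, an inhibitor of the mitochondrial kinase PDK4. The genes were chosen by name alone: every gene whose symbol begins with Mrpl or Mrps followed by a digit, with 6 names that end in a pseudogene suffix left out. This gave 78 of the 55414 genes in the tables, 49 with an Mrpl name and 29 with an Mrps name. All 78 passed the filter on low counts and were tested in each of the 3 comparisons. In aged mice 43 of them were lower than in young mice and 1 was higher, where 19.0% of all genes tested were lower and 21.4% higher. In PDK4-IN-treated aged mice 64 were higher than in aged mice and 0 were lower, where 23.9% of all genes tested were higher and 25.7% lower.

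Each group comprised 3 libraries from wild-type male C57BL/6J mice, made from pulmonary alveolus cells, mainly fibroblasts, that were cut out of frozen lung by laser capture microdissection and combined before RNA extraction. The group Young came from young animals, whose age the labels do not give. The groups Aged and PDK4-IN came from mice that aged naturally to 20 months and then received vehicle or PDK4-IN, described as an anthraquinone derivative, once every 2 weeks for 4 months before examination at 24 months. Nothing states whether the 3 libraries of a group came from separate animals, and p-values therefore refer to library-to-library spread, part or all of which could be technical. Library totals ran from 19456354 to 26660419 estimated counts, and the members took up 52395 to 70562 of them per library.

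The mitochondrial ribosome, or mitoribosome, translates the few messenger RNAs that the mitochondrial genome encodes, all of which specify core subunits of the respiratory chain and of ATP synthase. Its ribosomal RNAs are made inside the organelle, while all of its proteins are encoded in the nucleus, made in the cytosol and imported, so that building the particle draws on both genomes. The large subunit forms peptide bonds and guides the new chain into the inner membrane, and the small subunit holds the messenger RNA and reads its codons. Many of the proteins descend from bacterial ribosomal proteins and others were added during the evolution of mitochondria. PDK4 phosphorylates and thereby inhibits pyruvate dehydrogenase, which feeds pyruvate into mitochondrial oxidation.

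The symbols do not follow the subunits in every case. Mrps18a and Mrps30 code for proteins of the large subunit, and Mrps36 codes for a protein now placed in the 2-oxoglutarate dehydrogenase complex rather than in the ribosome. With these placed by function, 51 members belonged to the large subunit, 26 to the small subunit and 1 to neither.

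The stretches of DNA just upstream of 6 of these genes are shown because many members were called in the same direction. Exact letters of short motifs known from promoters of mitochondrial genes were found in 4 of the 6. The 6 were not picked by a rule, so 4 of 6 is no rate for the members. Each stretch holds the 60 bases that end at the base before the RefSeq start site, on the GRCm38.p6 build and read along the strand of the gene, with the matched letters in capitals. The coordinates of that build differ from those of GRCm39, the build named for the expression files. The stretch of Mrpl58 lies at chr11:115403692-115403751, plus strand, that of Mrpl52 at chr14:54426849-54426908, plus strand, and that of Mrps18a at chr17:46110944-46111003, plus strand, and each of the 3 holds letters of an ETS motif. The stretch of Mrpl17 lies at chr7:105811088-105811147, minus strand and holds letters of an NRF1 motif. The stretches of Mrpl16 at chr19:11770355-11770414, plus strand and of Mrpl45 at chr11:97315656-97315715, plus strand hold neither string of letters, and are shown beside the 4. Other forms of these motifs were not searched, so such forms may be present in them. Over the 69 members with a sequence, this stretch held the ETS letters in 13 and the NRF1 letters in 4. Of all genes with a sequence, 4.01% and 0.833% held them there.
Mrpl58: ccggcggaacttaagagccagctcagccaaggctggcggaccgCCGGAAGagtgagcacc
Mrpl52: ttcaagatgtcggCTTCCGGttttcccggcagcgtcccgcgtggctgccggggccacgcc
Mrps18a: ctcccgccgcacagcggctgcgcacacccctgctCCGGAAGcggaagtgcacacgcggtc
Mrpl17: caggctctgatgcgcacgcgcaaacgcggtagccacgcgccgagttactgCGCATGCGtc
Mrpl16: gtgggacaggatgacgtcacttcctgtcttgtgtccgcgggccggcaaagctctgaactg
Mrpl45: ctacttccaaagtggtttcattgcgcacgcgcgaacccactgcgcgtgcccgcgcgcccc

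A window of 300 bases around the start site, 250 before and 50 after it, was available for 69 of the 78 members. The members without one were Mrpl13, Mrpl15, Mrpl19, Mrpl38, Mrpl4, Mrpl54, Mrps28, Mrps34 and Mrps35. The letters CCGGAAG, a form of the motif bound by ETS factors such as GABP, stood on either strand in the windows of 26 of the 69 members (37.7%) against 9.93% of all 27025 genes with a window. The letters AAGATGGC, a form of the YY1 motif, occurred in 12 members (17.4%) against 3.19% of genes, and the palindromic letters CGCATGCG of the NRF1 motif in 7 members (10.1%) against 2.07%. At least 1 of these 3 motifs was present in 38 members. The letters TATAAA of a TATA box were found in 5 members (7.25%) against 15.7% of genes, and CCAAT in 27 members (39.1%) against 41.1%. Both strands were searched, the ETS and YY1 letters can share AAG where they meet, and a match describes letters only. The 27025 genes were taken whether or not they were expressed here, while all members passed the filter on low counts. The shares of members and of genes therefore come from unlike sets.

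Members with and without the letters of the ETS, NRF1 and YY1 motifs were described side by side, the ETS letters first. Among the 26 members with them, 18 were lower in Aged than in Young at a median log2 fold change of -0.32, and among the 43 members without them 21 were lower at a median of -0.24. In the comparison of PDK4-IN with Aged the corresponding counts of higher members were 23 and 33, at medians of 0.46 and 0.35. For the NRF1 letters the median by age was -0.24 in the 7 members with them and -0.28 in the 62 without. With PDK4-IN the medians were 0.36 and 0.41. For the YY1 letters, in 12 members with and 57 without, they were -0.30 and -0.28 by age. They were 0.40 and 0.40 with PDK4-IN. These are descriptions of the sets, with no test between them.

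The libraries were checked against marker genes before the members were compared. Levels are given as CPM, a gene's estimated count scaled to a common library total. Fibroblast markers were abundant in every library, with a summed level over 12 genes of 10412 to 10528 CPM in Young, 8562 to 8598 in Aged and 9716 to 10085 in PDK4-IN. Of 8 alveolar type 2 genes, Sftpc, Sftpb, Sftpd and Sftpa1 were each below 1 CPM on average in each group. Abca3, the only 1 of the 8 at 1 CPM or more, averaged 67.7 CPM in Young, 74.8 in Aged and 58.0 in PDK4-IN. Pdpn gave most of the summed level of the alveolar type 1 list. The summed level of 18 monocyte and macrophage markers was 44.5 to 54.1 CPM in Young, 5301 to 5373 in Aged and 158 to 176 in PDK4-IN, with 4, 17 and 13 of the 18 at 1 CPM or more and C1qc at 0 in Young. Smooth muscle and pericyte markers summed to 2174 to 2362 CPM in Young, 487 to 508 in Aged and 483 to 537 in PDK4-IN, and 10 proliferation genes to 634 to 683, 683 to 687 and 375 to 394. The part of these shifts in the members' values was not tested. In such bulk samples a change in the share of a cell type and a change in RNA per cell cannot be told apart.

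1 library stood apart from its group. Young replicate 3 differed from Young replicates 1 and 2 by a chi-square per degree of freedom of 21.0 and 20.6 over the counts of well-detected genes, where replicates 1 and 2 differed by 3.06. It also carried another relation of counts to gene length. The slope of a gene's log2 deviation on its log2 length was 0.067 in Young replicate 1, 0.060 in Young replicate 2 and -0.061 in Young replicate 3, was 0.054 to 0.067 in the Aged libraries, and was -0.0060, -0.098 and -0.142 in PDK4-IN replicates 1, 2 and 3. The members are short, with a median length of 1324 bases against 2806 for all genes tested between PDK4-IN and Aged, so the main counts below are also given with a length trend removed from every library. PDK4-IN replicates 1 and 3 differed by a chi-square per degree of freedom of 19.4, against at most 3.02 between Aged libraries.

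Summed over all 78 members, the level was 2819, 2788 and 3333 CPM in Young replicates 1, 2 and 3. It was 2523, 2470 and 2539 CPM in the Aged libraries and 3015, 3304 and 3488 CPM in the PDK4-IN libraries. The Aged libraries lay below all others and varied little, and the PDK4-IN libraries overlapped with the range of the Young libraries. The deposited TPM, the length-scaled share of transcripts, gave sums of 5840 to 6458 in Young, 4846 to 5016 in Aged and 5860 to 6364 in PDK4-IN. The Aged libraries again lay below all others, while the highest sum was that of Young replicate 3 and not of a PDK4-IN library.

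Young replicate 3 was the highest of the Young libraries for 75 of the 78 members, and PDK4-IN replicate 3 was the highest of its group for 61. In Aged no library led in this way, with 26, 18 and 34 members highest in replicates 1, 2 and 3. The median coefficient of variation across the 3 libraries was 11.2% in Young, 5.37% in Aged and 8.34% in PDK4-IN. After removal of the length trend, the median log2 deviation of the members was 0.02, -0.01 and 0.15 in Young replicates 1, 2 and 3, -0.16, -0.16 and -0.13 in those of Aged, and 0.0015, 0.081 and 0.121 in the PDK4-IN libraries, so that the Aged libraries were still below all others.

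**Figure D1:**
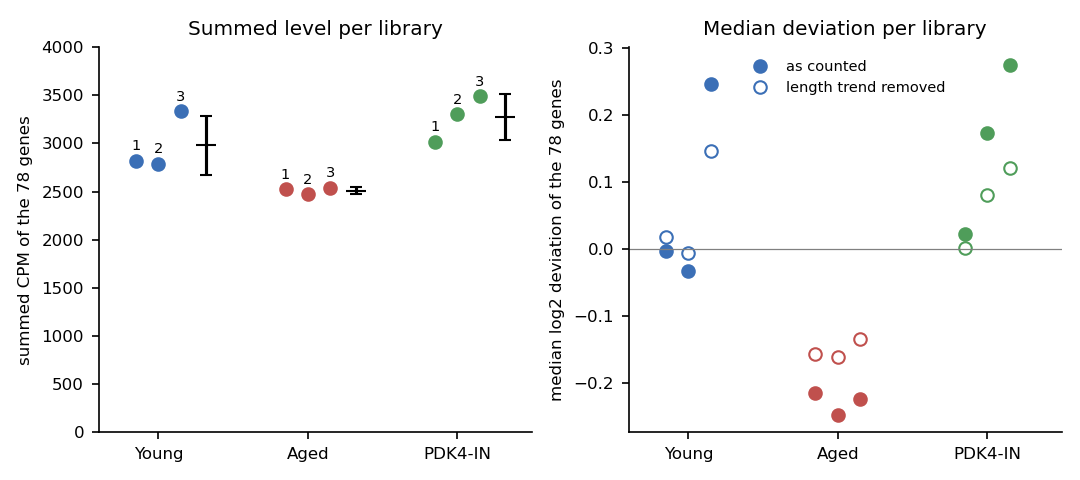
Left, summed CPM of the 78 genes in each library (numbers: replicates, bars: mean and SD of 3 libraries). Right, median over the 78 genes of the log2 deviation of a library from the mean of all 9, as counted (filled) and with the length trend removed (open). The Aged libraries lie lowest in both, and Young replicate 3 lies at 3333 CPM beside 2788 and 2819.

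Levels of the members spanned a wide range when expressed per length. In Young the CPM per kilobase of gene length ran from 4.18 to 124 with a median of 27.7, in Aged from 3.51 to 102 with a median of 23.3, and in PDK4-IN from 4.45 to 151 with a median of 27.6. The highest in Young were Mrpl52, a protein of the central protuberance of the large subunit, at 124 ± 20.8 CPM per kilobase (SD, n = 3), and Mrps21, a small-subunit protein with a bacterial counterpart, at 122 ± 11.1. These did not differ beyond their spread, and Mrpl30, a large-subunit protein with a bacterial counterpart, followed at 75.2 ± 5.50. By mean TPM in Young, Mrpl33 at 293 and Mrpl17 at 189 were above Mrpl30 at 138, so this order depends on the length used.

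At the low end were Mrps35, a mitochondria-specific protein of the small subunit, at 4.18 ± 0.543 CPM per kilobase in Young, Mrpl48 of the central protuberance at 4.46 ± 0.287, and Mrpl1 of the L1 stalk at 4.67 ± 0.803. These 3 also did not differ beyond their spread. Their TPM in Young, which uses the lengths behind the authors' estimate, averaged 20.2, 21.0 and 10.3, so the order of low members depends on the length used. Mrps35, Mrpl48 and Mrpl1 have lengths of 4162, 4285 and 3556 bases in the tables, while Mrpl52 and Mrps21 have 418 and 405.

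With age, the calls among the members were nearly all decreases. Of the 78 genes, 43 were lower in Aged than in Young at an adjusted p under 0.05 by edgeR's quasi-likelihood test with Benjamini-Hochberg adjustment over all 16123 genes tested, where 19.0% of all genes were lower. Only Mrpl45 was higher, where 21.4% of all genes were. The log2 fold change was negative for 75 members and had a median of -0.28 (-0.70 to 0.22), beside 0.01 over all genes. For 48 members the Aged libraries lay below all Young libraries without overlap, against 23.9% of all genes tested.

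The 5 largest decreases among members with at least 10 CPM and no overlap were those of Mrpl16, Mrps28, Mrpl17, Mrpl54 and Mrpl58. Mrpl16 (ENSMUSG00000024683), a counterpart of a bacterial protein near the site of peptide bond formation, was at 30.6, 27.9 and 39.6 CPM in Young replicates 1, 2 and 3 and at 19.4, 19.1 and 22.4 CPM in Aged. All Aged values were below all Young values (log2 fold change -0.70, SE 0.13, adjusted p = 0.00144).

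Mrps28 (ENSMUSG00000040269), a small-subunit protein, gave 12.4, 15.5 and 17.0 CPM in Young and 8.39, 10.8 and 9.54 CPM in Aged. It is among the members with few counts, and its groups did not overlap (log2 fold change -0.66, SE 0.14, adjusted p = 0.00327). Mrpl17 (ENSMUSG00000030879), a protein beside the exit of the peptide tunnel and the longest gene of the set at 7300 bases, gave 67.8, 67.3 and 80.0 CPM in Young and 51.7, 49.2 and 51.5 CPM in Aged. All its Aged libraries lay below all Young libraries (log2 fold change -0.51, SE 0.08, adjusted p = 4.22e-04).

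Mrpl54 (ENSMUSG00000034932), a mitochondria-specific protein of the large subunit, was at 33.0, 37.6 and 43.0 CPM in Young and at 26.2, 23.8 and 31.0 CPM in Aged. The nearest libraries of the groups, 33.0 and 31.0 CPM, lay close together (log2 fold change -0.50, SE 0.12, adjusted p = 0.00607). Mrpl58 (ENSMUSG00000018858), a peptidyl-tRNA hydrolase within the large subunit that releases chains from stalled ribosomes, gave 21.7, 19.7 and 27.8 CPM in Young and 17.0, 15.6 and 18.2 CPM in Aged. It fell as well (log2 fold change -0.46, SE 0.12, adjusted p = 0.0140), but was no longer called when Aged replicate 2 was left out (log2 fold change -0.41).

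Mrpl45 (ENSMUSG00000018882), which anchors the mitoribosome at the inner membrane next to the tunnel exit, was the exception. Its values were 50.3, 50.0 and 60.4 CPM in Young and 62.8, 62.4 and 63.3 CPM in Aged, and the groups did not overlap. It was higher in Aged at the edge of the threshold (log2 fold change 0.22, SE 0.08, adjusted p = 0.0497), and the call was lost without any 1 of Young replicates 1 and 2 and Aged replicates 1, 2 and 3, with DESeq2 and in the fit of all 9 libraries, at 0.16 to 0.22. With Young replicate 3 left out it was called at a larger difference (log2 fold change 0.31, edgeR adjusted p = 4.16e-05).

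Decreases were found in both subunits. In the large subunit 27 of 51 members were lower and Mrpl45 was higher, at a median log2 fold change of -0.25, and in the small subunit 16 of 26 were lower at a median of -0.29. Counterparts of bacterial proteins gave 16 of 30 lower in the large and 11 of 16 in the small subunit, and mitochondria-specific proteins 11 of 21 and 5 of 10. No test of a difference between these sets was made.

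By site in the particle, 4 of 5 proteins of the decoding centre and messenger RNA path were lower in Aged, 6 of 9 of the central protuberance, 3 of 5 of the peptidyl transferase core, 2 of 4 of the stalks and 3 of 7 of the peptide exit. Mrps7, a counterpart of a bacterial protein of the small-subunit head, was at 63.2, 62.7 and 64.3 CPM in Young and at 48.8, 48.0 and 48.9 CPM in Aged. Mrps7 fell (log2 fold change -0.40, SE 0.06, adjusted p = 2.50e-04). Mrps7 was singled out after its values were seen. Mrpl12, the stalk protein that engages elongation factors and also binds the mitochondrial RNA polymerase, gave 64.8, 63.1 and 77.6 CPM in Young and 55.0, 53.6 and 54.0 CPM in Aged. The Aged libraries again lay below all Young libraries (log2 fold change -0.35, SE 0.08, adjusted p = 0.00618).

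Without Young replicate 3, 45 members were lower, 43 of them among the 43 already called, at a median log2 fold change of -0.20. The share of all genes called lower was then 23.0%. Without Aged replicate 1 the count was 26, without Aged replicate 2 it was 25 and without Aged replicate 3 it was 29. The share of all genes called lower also fell in these settings, to 13.1%, 12.8% and 13.3%. With the length trend removed 40 members were lower and 1 higher, at a median of -0.19, where 22.7% of all genes were lower and 22.9% higher. The fold change of the members rose with gene length before removal (Spearman's rho 0.31 across the 78 genes, which share the same libraries) and had a rho of -0.15 after it.

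In PDK4-IN-treated mice the members were higher than in aged mice as a group. Of the 78 genes 64 were higher and 0 lower, by the same test over 16275 genes, of which 23.9% were higher and 25.7% lower. The log2 fold change was positive for all 78 members, with a median of 0.40 (0.06 to 0.69) beside -8.84e-04 over all genes. For 66 members all PDK4-IN libraries lay above all Aged libraries, against 28.4% of all genes tested. The comparison shares the Aged libraries with the comparison by age, so the directions in the 2 are not independent.

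Mrpl54 had the largest increase that met the rule for naming. It was at 26.2, 23.8 and 31.0 CPM in Aged and at 37.5, 41.6 and 47.6 CPM in PDK4-IN replicates 1, 2 and 3, with no overlap (log2 fold change 0.66, SE 0.11, adjusted p = 6.60e-04). Mrpl41 (ENSMUSG00000036850), a mitochondria-specific protein of the large subunit, gave 21.4, 20.5 and 20.7 CPM in Aged and 28.9, 33.2 and 35.9 CPM in PDK4-IN. The Aged libraries agreed closely and the PDK4-IN libraries spread more widely above them (log2 fold change 0.65, SE 0.09, adjusted p = 1.62e-04).

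Mrpl52 went from 38.8, 37.1 and 38.9 CPM in Aged to 50.6, 60.3 and 65.8 CPM in PDK4-IN and was also apart (log2 fold change 0.63, SE 0.09, adjusted p = 2.35e-04). Mrps24 (ENSMUSG00000020477), a counterpart of the bacterial protein at the entry of the messenger RNA channel, gave 28.5, 25.4 and 24.7 CPM in Aged and 35.4, 43.0 and 41.8 CPM in PDK4-IN. Mrps24 rose (log2 fold change 0.62, SE 0.09, adjusted p = 2.66e-04), as did Mrps12 (ENSMUSG00000045948), the counterpart of the bacterial decoding-centre protein S12 that streptomycin resistance maps to. For Mrps12 the values were 28.0, 29.7 and 25.1 CPM in Aged and 39.2, 40.1 and 46.5 CPM in PDK4-IN, again with no overlap (log2 fold change 0.61, SE 0.09, adjusted p = 2.49e-04).

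The small subunit had 23 of 26 members higher at a median log2 fold change of 0.45, and the large subunit 41 of 51 at a median of 0.37. Bacterial counterparts were higher in 24 of 30 and 15 of 16 cases in the large and small subunit, and mitochondria-specific proteins in 17 of 21 and 8 of 10. All 5 proteins of the decoding and messenger RNA path were higher, 8 of 9 of the central protuberance, 4 of 5 of the peptidyl transferase core, 3 of 4 of the stalks and 5 of 7 of the peptide exit. The 14 members not called were Mrpl1, Mrpl3, Mrpl14, Mrpl18, Mrpl19, Mrpl35, Mrpl44, Mrpl45, Mrpl49, Mrpl50, Mrps2, Mrps22, Mrps31 and Mrps36, with positive log2 fold changes from 0.06 to 0.32.

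**Figure D2:**
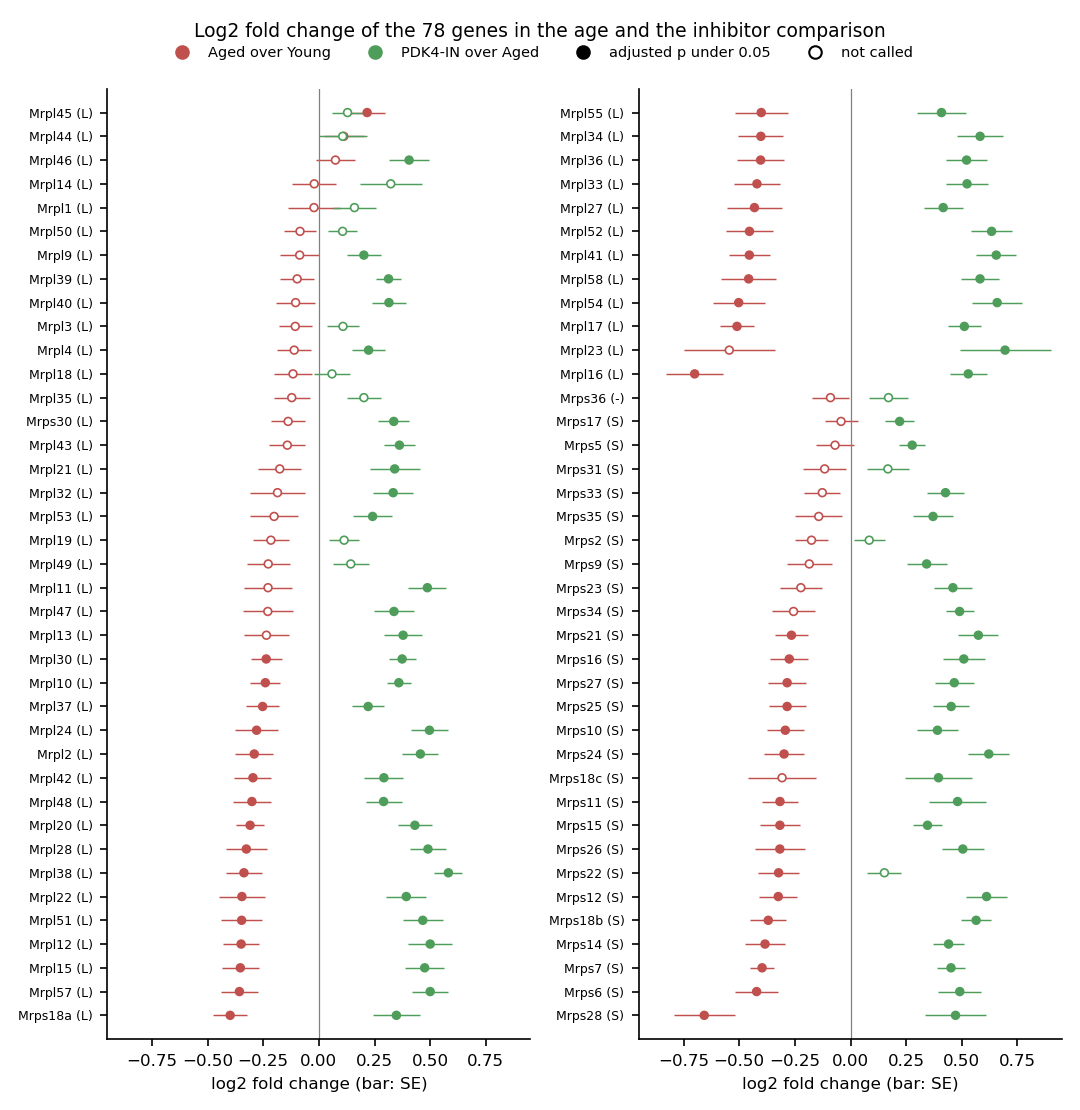
Log2 fold change of each of the 78 genes for Aged over Young (red) and PDK4-IN over Aged (green), with bars of 1 SE from edgeR over 3 libraries a group and filled points for an adjusted p under 0.05. Letters mark the large (L) and small (S) subunit. The red points lie at or below 0 except for Mrpl45, Mrpl44 and Mrpl46, and all green points lie above 0, from 0.06 to 0.69.

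With the length trend removed, 44 members were higher and 1 was lower, at a median log2 fold change of 0.21, where 21.2% of all genes were higher and 23.3% lower. Of the 64 members called as counted, 41 were called in the same direction. The lower member was Mrpl18, a counterpart of a bacterial protein that binds 5S RNA, at a log2 fold change of -0.19 (edgeR adjusted p = 0.0421), beside 0.06 as counted.

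Among the 26 shortest members, with a median length of 746 bases, 24 were higher as counted and 11 with the trend removed, and the median log2 fold change went from 0.44 to 0.13. Among the 26 longest, with a median length of 3396 bases, 19 were higher as counted and 22 with the trend removed, and the median went from 0.34 to 0.41. Across the 78 members Spearman's rho of fold change with length was -0.30 as counted, against -0.39 over all 16275 genes, and 0.52 after removal. Mrpl17, at 7300 bases, had a log2 fold change of 0.51 as counted and 0.83 with the trend removed (edgeR adjusted p = 2.50e-05), and Mrps25, at 6073 bases, 0.45 and 0.70 (edgeR adjusted p = 1.00e-04). Both were singled out after their values were seen, as the longest genes of the set by the deposited length. In Young, Mrpl17 had 71.7 CPM and a TPM of 189, while Mrpl10, at 1708 bases, had 92.3 CPM and a TPM of 90.4. The TPM of Mrpl17 thus used a length shorter than 7300 bases. Its TPM averaged 123 in Aged and 154 in PDK4-IN. Mrpl33, at 2178 bases, had 53.1 CPM and a TPM of 293 in Young. Values of such members with the trend removed are uncertain.

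**Figure D3:**
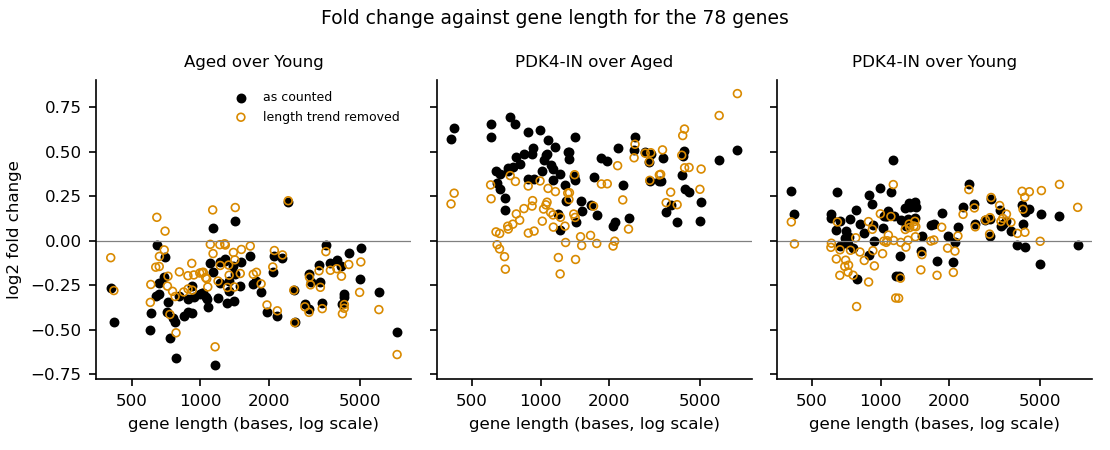
Log2 fold change of the 78 genes against gene length in bases (log axis) in the 3 comparisons, as counted (black) and with the length trend of all genes removed in each library (orange). In PDK4-IN over Aged the removal lowers the short genes and raises the long ones, and the median goes from 0.40 to 0.21.

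Among the 78 members, 42 were lower in Aged than in Young and also higher in PDK4-IN than in Aged. This pair of calls was made for 12.6% of the 15939 genes tested in both comparisons. Of all genes, 3060 were lower in Aged and 2005 had the pair, so most genes lower in Aged also had it. Of the 43 members lower in Aged, 42 had it. The exception was Mrps22, a mitochondria-specific protein of the small subunit, at 19.6, 18.8 and 21.1 CPM in Aged and 22.1, 22.3 and 21.3 CPM in PDK4-IN (log2 fold change 0.15, SE 0.08, adjusted p = 0.124). With the length trend removed 30 members had the pair of calls, 29 of them among the 42. The share of all genes with the pair was not determined in this setting, so the count of 30 has no background beside it. Of all genes 22.7% were then lower in Aged and 21.2% higher in PDK4-IN. Both comparisons use the Aged libraries, so the pair of calls is not 2 independent results.

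The 6 members with the largest paired changes were Mrpl16, Mrpl17, Mrpl54, Mrps28, Mrpl58 and Mrpl41. In PDK4-IN Mrpl16 was at 28.8, 29.7 and 28.7 CPM, within the range of Young replicates 1 and 2 and above every Aged library (log2 fold change 0.53, SE 0.08, adjusted p = 3.45e-04). Mrpl17 was at 65.2, 73.1 and 77.5 CPM there (log2 fold change 0.51, SE 0.07, adjusted p = 2.16e-04). Mrpl58 had 23.8, 25.5 and 26.2 CPM (log2 fold change 0.58, SE 0.09, adjusted p = 2.46e-04). Both had all PDK4-IN libraries above all Aged libraries, those of Mrpl58 lay inside the range of Young, and PDK4-IN replicate 1 of Mrpl17 lay below it.

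Mrps28 was at 11.9, 12.1 and 15.6 CPM in PDK4-IN (log2 fold change 0.47, SE 0.14, adjusted p = 0.0147), and this call was lost without Aged replicate 1, without PDK4-IN replicate 3 and with the length trend removed, at log2 fold changes of 0.38, 0.33 and 0.15. For Mrpl41 the fall in Aged went from 28.4 ± 3.37 CPM in Young to 20.9 ± 0.445 CPM in Aged (mean ± SD, n = 3; log2 fold change -0.45, SE 0.09, adjusted p = 0.00264 by edgeR), and the PDK4-IN mean of 32.7 ± 3.52 CPM was above both.

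**Figure D4:**
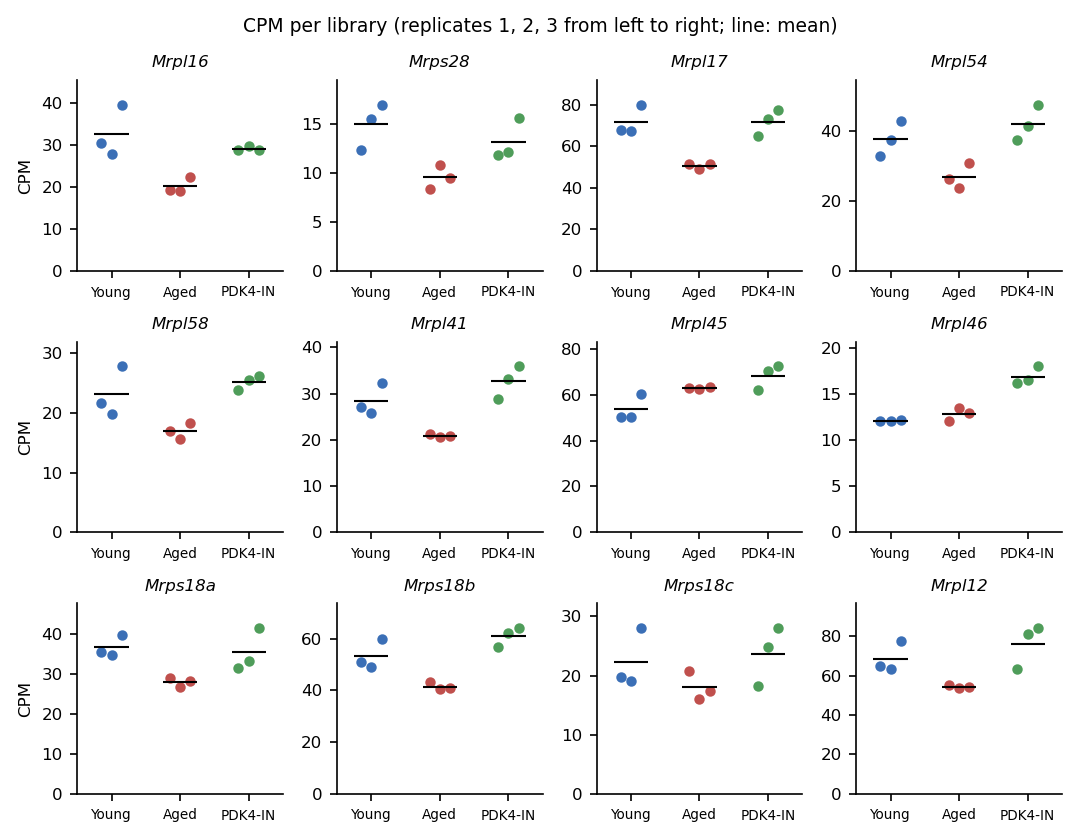
CPM of 12 members in each library of Young (blue), Aged (red) and PDK4-IN (green), with replicates 1, 2 and 3 from left to right, a line for the mean and axes that start at 0. The Aged libraries lie lowest for Mrpl16, Mrps28, Mrpl17, Mrpl54, Mrpl58, Mrpl41, Mrps18a, Mrps18b and Mrpl12, while for Mrpl46 the PDK4-IN libraries at 16.2 to 18.0 CPM stand above both other groups.

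Set against Young, PDK4-IN gave few calls. Of the 78 members 5 were higher and 0 lower in the fit of all 9 libraries, where 13.3% of 16553 genes were higher and 15.7% lower. The median log2 fold change was 0.11 (-0.21 to 0.45), with 62 members positive. The higher members were Mrpl46, Mrpl45, Mrps24, Mrps21 and Mrps33.

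Mrpl46 (ENSMUSG00000030612), a mitochondria-specific protein of the central protuberance, was at 12.1, 12.0 and 12.1 CPM in Young, 12.0, 13.5 and 13.0 CPM in Aged and 16.2, 16.5 and 18.0 CPM in PDK4-IN. All PDK4-IN libraries lay above all others, and Young and Aged overlapped (log2 fold change 0.45, SE 0.09, adjusted p = 0.00245 against Young, and log2 fold change 0.41, SE 0.09, adjusted p = 0.00347 against Aged). Against Young it was called in every alternative run, and against Aged its call was lost with the length trend removed (log2 fold change 0.15). Mrpl45 was at 62.1, 70.3 and 72.3 CPM in PDK4-IN and exceeded Young (log2 fold change 0.32, SE 0.09, adjusted p = 0.0172), a call that was lost without Young replicate 1, without Young replicate 2, without PDK4-IN replicate 2 and without PDK4-IN replicate 3, at 0.26, 0.25, 0.28 and 0.26.

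The libraries of Mrps24, Mrps21 and Mrps33 overlapped between PDK4-IN and Young. Mrps24 was at 30.0, 30.6 and 35.4 CPM in Young beside 35.4, 43.0 and 41.8 CPM in PDK4-IN, where the groups met at 35.4 CPM (log2 fold change 0.30, SE 0.10, adjusted p = 0.0417). Mrps21 was at 46.8, 46.5 and 54.4 CPM in Young beside 52.5, 63.4 and 67.4 CPM in PDK4-IN (log2 fold change 0.28, SE 0.10, adjusted p = 0.0466). Mrps33, a mitochondria-specific protein of the small subunit, was at 35.8, 35.3 and 42.3 CPM in Young beside 41.9, 46.6 and 51.5 CPM in PDK4-IN (log2 fold change 0.27, SE 0.09, adjusted p = 0.0463). For all 3 the lowest PDK4-IN library was below Young replicate 3.

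The count of higher members in this comparison changed with single libraries, as did the share of all genes called. Without Young replicate 3 it was 22, at a median log2 fold change of 0.20, and 17 of the 22 had not been called with all libraries. Leaving out Young replicate 1, Young replicate 2, PDK4-IN replicate 2 or PDK4-IN replicate 3 gave 1 each, where 7.70% to 8.50% of all genes were higher, and leaving out PDK4-IN replicate 1 gave 9, where 13.5% were. Without Young replicate 3 the share of all genes was 16.2%. With the length trend removed 4 members were higher and 7 lower, at a median of 0.02, where 15.6% of all genes were higher and 16.4% lower. A p that misses the threshold does not show that a member was the same in PDK4-IN and Young.

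The 3 genes named Mrps18 are paralogs that code for proteins at different places, Mrps18a in the large and Mrps18b and Mrps18c in the small subunit. Mrps18b was at 51.0, 48.9 and 59.7 CPM in Young, 43.1, 40.6 and 40.8 CPM in Aged and 56.9, 62.0 and 64.1 CPM in PDK4-IN. It fell with age (log2 fold change -0.37, SE 0.08, adjusted p = 0.00451) and rose with PDK4-IN (log2 fold change 0.56, SE 0.07, adjusted p = 5.45e-05), also with the length trend removed (log2 fold changes -0.26 and 0.29).

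Mrps18a was at 35.4, 34.7 and 39.7 CPM in Young, 29.0, 26.8 and 28.3 CPM in Aged and 31.6, 33.2 and 41.5 CPM in PDK4-IN. Its fall was called in each alternative run (log2 fold change -0.40, SE 0.08, adjusted p = 0.00192), while its rise (log2 fold change 0.35, SE 0.10, adjusted p = 0.0162) was lost without Aged replicate 2 (0.31) and with the length trend removed (0.04). Mrps18c, with the widest spread of the members in Young and Aged, was at 19.7, 19.1 and 28.1 CPM in Young, 20.9, 16.0 and 17.4 CPM in Aged and 18.3, 24.8 and 28.0 CPM in PDK4-IN. The groups overlapped in both comparisons, it did not pass the test by age (log2 fold change -0.31, SE 0.15, adjusted p = 0.133), and its call against Aged (log2 fold change 0.40, SE 0.15, adjusted p = 0.0483) was lost in 9 of the alternatives, the length trend removal among them.

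Other members fixed for description filled in the range. Mrps6, a counterpart of a bacterial protein of the small-subunit platform, was at 55.9 ± 6.32 CPM in Young, 42.1 ± 4.22 in Aged and 58.8 ± 6.39 in PDK4-IN (mean ± SD, n = 3), and was called lower by age and higher with PDK4-IN (edgeR adjusted p = 0.00582 and 0.00158). Mrps36, the member outside the ribosome, was at 19.1 ± 1.43, 18.1 ± 0.312 and 20.3 ± 1.93 CPM (mean ± SD, n = 3) and passed neither test (edgeR adjusted p = 0.411 and 0.138). Mrpl12 was at 63.2, 81.0 and 84.1 CPM in PDK4-IN, where replicate 1 was inside the Young range and replicates 2 and 3 were above it (log2 fold change 0.50, SE 0.10, adjusted p = 0.00155).

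Among the members of extreme level, Mrps21 was lower in Aged (log2 fold change -0.27, edgeR adjusted p = 0.0159) and Mrpl30 as well (-0.24, adjusted p = 0.0196). Both calls were lost without any 1 Aged library and with the length trend removed, each at -0.09 and -0.09 in the latter. Mrpl48 fell with age (log2 fold change -0.30, edgeR adjusted p = 0.0180), a call lost without Young replicate 2 (-0.27) and without Aged replicate 1 (-0.25). Mrpl1 and Mrps35 did not pass the test by age, at -0.02 and -0.14, and Mrps35 was higher in PDK4-IN than in Aged (0.37, edgeR adjusted p = 0.00586).

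Mrpl23, a protein of the tunnel exit, was the member with the fewest counts. It was at 3.72, 4.39 and 3.09 CPM in Young, 2.20, 2.73 and 2.82 CPM in Aged and 3.33, 4.83 and 4.29 CPM in PDK4-IN, and its values are uncertain because a pseudogene, Mrpl23-ps1, was listed at 25.0, 24.8 and 31.9 CPM in Young, 22.0, 21.1 and 21.5 CPM in Aged and 28.0, 29.8 and 32.3 CPM in PDK4-IN. Of the other 5 pseudogenes only Mrpl48-ps exceeded 1 CPM, with at most 2.46 CPM. Mrpl23 was singled out after its values were seen.

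The 6 mitoribosome proteins with other names moved in part with the members. In Aged 3 were lower and 0 higher, and in PDK4-IN 4 were higher than in Aged and 0 lower. Of all genes 19.0% were lower and 21.4% higher by age, and 23.9% were higher and 25.7% lower with PDK4-IN. Gadd45gip1, a protein of the large subunit, was at 31.7, 34.9 and 43.2 CPM in Young, 25.7, 28.1 and 25.2 CPM in Aged and 32.7, 36.4 and 42.1 CPM in PDK4-IN. The Aged libraries were below all others (log2 fold change -0.49, SE 0.11, adjusted p = 0.00493 by age). Aurkaip1, a small-subunit protein, rose from 58.2, 56.0 and 54.4 CPM in Aged to 72.5, 84.1 and 87.7 CPM in PDK4-IN (log2 fold change 0.54, SE 0.08, adjusted p = 1.97e-04), and Dap3, a GTP-binding protein of the small subunit, was higher in PDK4-IN than in Aged (0.41, edgeR adjusted p = 0.00133) and than in Young (0.28, edgeR adjusted p = 0.0464).

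Of 26 mitoribosome assembly factors 8 were lower in Aged and 14 higher in PDK4-IN than in Aged, and of 13 translation factors 4 and 4, beside 19.0% and 23.9% of all genes. Mpv17l2, an inner-membrane protein needed for assembly, was at 34.1, 36.8 and 44.5 CPM in Young, 26.3, 25.3 and 26.0 CPM in Aged and 36.1, 39.4 and 37.7 CPM in PDK4-IN (log2 fold change -0.58, SE 0.10, adjusted p = 7.71e-04 by age and log2 fold change 0.55, SE 0.07, adjusted p = 6.81e-05 with PDK4-IN). Fastkd2, which acts on 16S rRNA, fell with age (-0.47, edgeR adjusted p = 7.33e-04) and was also lower in PDK4-IN than in Young (-0.27, edgeR adjusted p = 0.0389). The GTPase gene Mtg2 was higher in PDK4-IN than in Aged (0.57, edgeR adjusted p = 5.75e-04).

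Among translation factors, Tufm, the elongation factor that brings aminoacyl-tRNA to the ribosome, fell with age (-0.27, edgeR adjusted p = 0.00618) and rose with PDK4-IN (0.35, adjusted p = 7.45e-04). Its nucleotide exchange factor Tsfm rose with PDK4-IN (0.48, edgeR adjusted p = 5.64e-04), and the recycling factor Mrrf fell with age (-0.43, edgeR adjusted p = 0.00101). Against Young, PDK4-IN had the elongation factor Gfm1 lower (-0.31, edgeR adjusted p = 0.00144) and the initiation factor Mtif3 higher (0.36, adjusted p = 0.0150).

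Of 20 genes for charging mitochondrial tRNAs 5 were lower and 1 higher in Aged, and 6 were higher in PDK4-IN than in Aged. Of all genes 19.0% were lower and 21.4% higher by age and 23.9% were higher with PDK4-IN, so the counts of 5 and 6 lie near the background and are no result about the list. Sars2, for serine, was called in both comparisons (-0.54 by age, edgeR adjusted p = 0.00157, and 0.48 with PDK4-IN, adjusted p = 0.00311), Iars2, for isoleucine, fell with age (-0.32, edgeR adjusted p = 0.00136) and Lars2, for leucine, was higher in Aged (0.46, edgeR adjusted p = 0.0138). Cars2, for cysteine, rose with PDK4-IN (0.28, edgeR adjusted p = 0.0150). Of 17 transcription and RNA processing genes 5 were lower in Aged, and 5 were higher and 1 lower in PDK4-IN than in Aged, beside the same shares of all genes. Polrmt, the mitochondrial RNA polymerase, was lower in Aged (-0.29, edgeR adjusted p = 0.00375) and higher in PDK4-IN than in Aged (0.30, adjusted p = 0.00258), and Lrpprc, which stabilises mitochondrial messenger RNAs, was lower in Aged (-0.41, edgeR adjusted p = 8.44e-04). Pnpt1, which degrades RNA in the organelle, was the lower one with PDK4-IN (-0.34, edgeR adjusted p = 0.00413), while Hsd17b10, a part of mitochondrial RNase P, rose (0.40, adjusted p = 0.00440).

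The counts of the ribosomal RNAs that the members bind were higher in PDK4-IN. The 12S gene mt-Rnr1 was at 238, 238 and 286 CPM in Young, 247, 229 and 235 CPM in Aged and 393, 412 and 430 CPM in PDK4-IN, and the 16S gene mt-Rnr2 at 354, 332 and 393 CPM in Young, 338, 312 and 329 CPM in Aged and 618, 631 and 625 CPM in PDK4-IN. Neither passed the test by age (-0.11 and -0.15, edgeR adjusted p = 0.253 and 0.0939). Both were higher in PDK4-IN than in Aged (0.81 and 0.94, adjusted p = 4.63e-07 and 2.99e-08) and than in Young (0.67 and 0.77, adjusted p = 5.84e-05 and 4.97e-06), with every PDK4-IN library above every other library. With the length trend removed the rises over Aged were 0.52 and 0.76. The study's methods, in a passage on human cell lines, name a step that removes ribosomal RNA before sequencing. If it was used here, these counts also depend on how much was removed from each library, which was not tested.

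The messenger RNAs that the mitoribosome translates did not move one way. Of the 13 mitochondrially encoded protein genes 3 were lower and 1 higher in Aged, and 5 were lower and 4 higher in PDK4-IN than in Aged. The shares of all genes were 19.0% lower and 21.4% higher by age, and 25.7% lower and 23.9% higher with PDK4-IN. mt-Co1, a catalytic subunit of cytochrome c oxidase, was at 3872, 3799 and 4068 CPM in Young, 5183, 5169 and 5226 CPM in Aged and 4428, 4136 and 4015 CPM in PDK4-IN, with Aged highest (log2 fold change 0.40, SE 0.04, adjusted p = 3.36e-05 by age and log2 fold change -0.30, SE 0.04, adjusted p = 1.02e-04 with PDK4-IN). mt-Nd6, the one protein gene on the other strand, was lowest in Aged, with 178, 177 and 238 CPM, 154, 142 and 143 CPM and 197, 217 and 203 CPM in the 3 groups (log2 fold change -0.45, SE 0.10, adjusted p = 0.00646 by age and log2 fold change 0.50, SE 0.06, adjusted p = 3.27e-05 with PDK4-IN).

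mt-Atp8 fell with PDK4-IN (-0.69, edgeR adjusted p = 3.45e-05) and mt-Nd3 rose (0.94, adjusted p = 0.00113), and mt-Nd4 fell with age (-0.21, edgeR adjusted p = 0.00394). mt-Nd5 was lower in PDK4-IN than in Young (-0.73, edgeR adjusted p = 8.36e-04). Several of these genes have near-identical copies in the nuclear genome, and their values are uncertain. mt-Co2 and mt-Co3 were listed at 7.46 to 49.6 and 0.112 to 178 CPM over the 9 libraries, far below mt-Co1 and with no order by group.

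**Figure D5:**
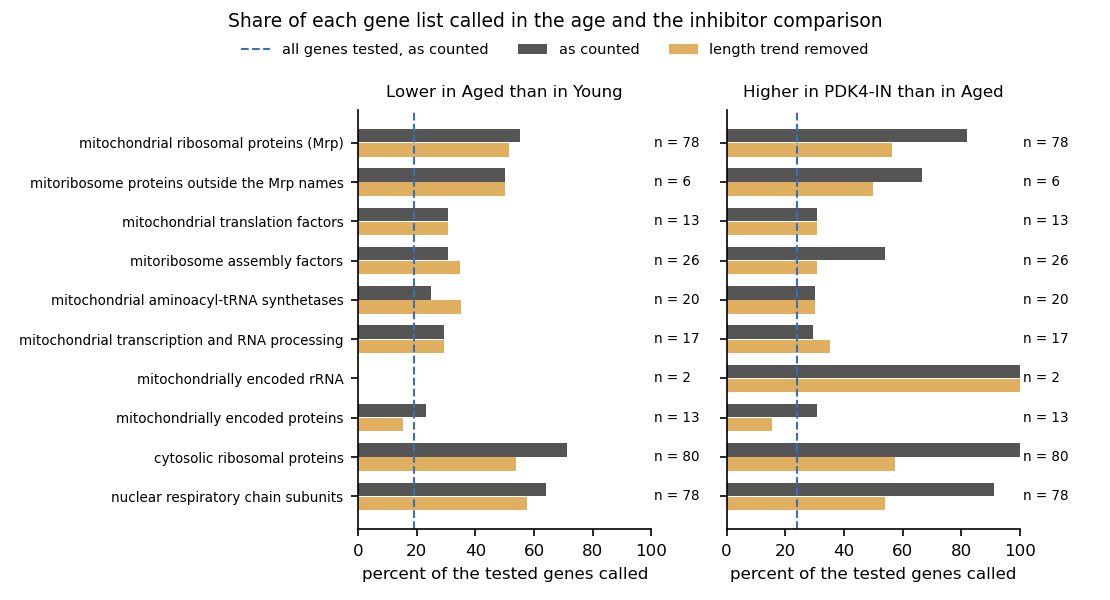
Percent of the tested genes of each list called lower in Aged than in Young (left) and higher in PDK4-IN than in Aged (right), as counted (grey) and with the length trend removed (yellow), with the share of all genes tested as counted (dashed: 19.0% and 23.9%) and the number tested. As counted, 43 and 64 of the 78 members were called, beside 57 and 80 of 80 cytosolic ribosomal proteins, 50 and 71 of 78 respiratory chain subunits and 4 and 4 of 13 translation factors.

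Counts are also given for 2 lists whose genes have shorter median lengths. Of 80 cytosolic ribosomal protein genes tested 57 were lower in Aged, at a median log2 fold change of -0.25, and all 80 were higher in PDK4-IN than in Aged at a median of 0.42. Of 78 nuclear genes for respiratory chain subunits 50 were lower and 1 higher in Aged, at a median of -0.28, and 71 were higher with PDK4-IN at a median of 0.44. The medians of the 78 members were -0.28 and 0.40. The median lengths were 802 bases for the cytosolic ribosomal proteins, 680 for the respiratory chain subunits and 1324 for the members.

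With the length trend removed, the cytosolic ribosomal proteins were lower in 43 of 80 cases by age and higher in 46 with PDK4-IN, at medians of -0.12 and 0.12. The respiratory chain subunits were lower in 45 of 78 and higher in 42, at medians of -0.17 and 0.16. The members then had 40 of 78 lower and 44 higher, at medians of -0.19 and 0.21. No test of the difference between the lists was made.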

How the data were processed

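RNA was sequenced from 9 libraries of laser-captured lung cells, 3 each of Young, Aged and PDK4-IN. The submitters' processing notes name Bowtie 0.12.2 and the GRCm39 build. The study's methods name RSEM for quantification, in a passage that describes human cell lines and a human genome build but lists this series among those deposited. The same passage names removal of ribosomal RNA before library construction. The authors deposited an estimated count of reads, made by them from the aligned reads and not normalized, together with TPM values and a gene length for each of 55414 genes, in 2 tables that were joined by gene ID. The sheet names of both tables speak of bleomycin treatment and not of age or PDK4-IN, while their column names match these samples. The column names were followed. The deposited columns of fold changes and p-values were not used.

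Estimated counts were rounded to whole numbers and tested with edgeR 4.0.16 (filterByExpr, TMM scaling, quasi-likelihood test, two-sided, Benjamini-Hochberg adjustment over all genes tested) in R 4.3.3. Aged was compared with Young and PDK4-IN with Aged on their own 6 libraries, and PDK4-IN with Young in a fit of all 9. A call is an adjusted p under 0.05. Each SE is the absolute log2 fold change divided by the square root of the F statistic. CPM used unrounded counts over library totals, and CPM per kilobase used the deposited length. The length trend was removed as a lowess offset (span 0.3) of log2 CPM with a prior count of 2 on log2 length in each library. The steps were tested on simulated data.

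Members named in the text were the up to 5 in each direction with the largest change among those called, with groups that did not overlap and a mean of at least 10 CPM in the higher group, the 6 with the largest opposite calls, the 3 highest and 3 lowest per kilobase in Young, and a fixed set of 7 (Mrpl12, Mrps36, Mrpl58, Mrps6, Mrps18a, Mrps18b and Mrps18c). Of each related list up to 2 genes each way by p were named. Mrps7, Mrps25, Mrps22, Mrpl18, Mrpl23, Mrps33 and the values of mt-Co2 and mt-Co3 fall outside this rule. The members and lists were chosen with earlier results of these data known. Promoter windows came from RefSeq on GRCm38.p6. Alternatives were DESeq2 1.42.0, library total scaling, no count filter, removal of the length trend, a replicate block, another sample set and leaving out each library.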

Additional observations from a re-analysis of the deposited data

How the results depend on the processing

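The count of members lower in Aged than in Young was 25 to 46 when 1 library was left out, and that of members higher was 0 to 1, with 0 in DESeq2 and in the fit of all 9 libraries. When 1 library was left out, 12.8% to 23.0% of all genes were lower. Members lower in PDK4-IN than in Aged numbered 1 with the length trend removed, and members higher numbered 42 with the replicate block and the length trend removed. The shares of all genes were 23.3% lower and 19.8% higher in these settings. Members higher in PDK4-IN than in Young numbered 9 with library total scaling, 9 with the replicate block and 8 with the block and the length trend removed. Larger shares of all genes were higher in these settings, 15.9%, 14.7% and 16.2%. The count was 2 in the fit of the 6 libraries of these groups, where 9.61% of all genes were higher. It was 1 to 22 when 1 library was left out. Members lower in that comparison numbered 7 with the length trend removed and 7 with the block added, where 16.4% and 17.3% of all genes were lower. Without Young replicate 3 and with the length trend removed, an alternative chosen for this comparison after seeing the data, 14 members were higher and 5 lower. Of all genes 15.9% were higher and 17.2% lower in that setting. Mrpl17 changed sign to 0.37 there. The cause was not tested.

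Replicate numbers did not pair the samples. Same-numbered libraries had correlations of 0.043, 0.002 and 0.012 between Aged and Young, -0.040, -0.003 and 0.041 between PDK4-IN and Aged, and 0.122, -0.017 and 0.182 between PDK4-IN and Young, and not every library correlated best with its own number. With the replicate block alone 44 members were lower in Aged than in Young and 61 were higher in PDK4-IN than in Aged. The shares of all genes were 17.6% and 22.1%. Of the named members' fold changes under the alternatives, 811 kept direction and side of the threshold, 68 lost the call, 22 gained one and 1 changed sign. With 3 libraries a group, small changes of members with few counts were not detectable.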
